A study of Mus musculus with 24 samples.

Results

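The libraries described here cover the passage from the fed state to the early fast in mouse back skin. Early fast means RNA taken 11 to 12 h after food was opened, and the fed state means RNA taken 7 to 8 h after it. By this rule, 7 of the 24 libraries of the series were members, 4 in the early fast (ED12, MD16, EN00 and EN24) and 3 in the fed state (ED08, MD12 and EN20). The letters name the feeding group and the digits the sampling time in hours after lights on, called ZT. ED mice had food from ZT0 to ZT4, MD mice from ZT5 to ZT9 and EN mice from ZT12 to ZT16, with lights off at ZT12. Every library held total RNA of whole back skin from male wild type C57BL/6NCrl mice, an inbred strain, at 8 weeks of age, and the labels give hair follicles at rest (telogen) for each, which the hair keratins of EN00 go against. All mice had been kept on restricted feeding, so no group here fed freely, and each library was 1 pool of 2 to 4 animals. In each feeding group the early fast was set against the fed state of the same group: ED12 against ED08, MD16 against MD12, and EN00 and EN24 against EN20. EN00 and EN24 were taken at the same clock time on the 2 days and share EN20, so the 4 differences within groups rest on 3 fed libraries.

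In the fed state, insulin promotes glucose use, glycogen storage, and the synthesis of fatty acids and sterols through the SREBP transcription factors. When food is spent, insulin declines, FOXO transcription factors enter the nucleus, fat cells release fatty acids, and these activate the nuclear receptors of the PPAR family, whose targets carry fatty acid oxidation. Whole back skin holds epidermis, hair follicles, sebaceous glands, dermal fat and a sheet of striated muscle, and each of these responds to feeding in its own way. In whole tissue, fewer cells of a type and less RNA per cell cannot be told apart.

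Total exon counts were between 14178060 and 26052550 in the 7 libraries. Keratinocyte markers were present in all of them: the summed level of 12 basal keratinocyte genes was 7381 to 9561 CPM (counts scaled to library size, with TMM factors) in early fast libraries and 8504 to 9321 CPM in fed libraries. EN00 stood apart by its hair keratins. Of 27 listed hair shaft and anagen follicle genes, 9 were tested. Their summed level was 2578 CPM in EN00 and 118.7 to 167.5 CPM in the other 3 early fast libraries, against 125.9 to 167.8 CPM in the fed libraries. MD16 also stood apart by larger differences in general: the median absolute difference over all genes was 0.23 on the log2 scale between MD16 and MD12, against 0.17 in ED, 0.13 for EN24 and 0.17 for EN00. EN00 and EN24, from the same group and clock time, differed by a median of 0.16.

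Across the 15719 genes tested, 2 rose in the early fast relative to the fed state at an adjusted p under 0.05, which is 0.0127% of genes, and 0 fell (0%). The 2 were Pdk4, a kinase that restrains glucose oxidation, and Ucp3, a mitochondrial carrier of muscle, both known to respond to fasting. At an unadjusted p under 0.05 there were 445 higher genes (2.83%) and 424 lower genes (2.7%), together 869 (5.53%). Counted by direction alone, 1445 genes (9.19%) were higher in 4 of 4 differences within feeding groups, and 1350 genes (8.59%) were lower in 4 of 4. The share of all genes with no overlap between early fast and fed libraries was not counted, so a lack of overlap only describes a gene. Nor was the share of all genes higher or lower within a single feeding group. Counts of list members by direction in a single group therefore only describe the list. The median log2 fold change over all genes was 0.0043. Without EN00 the test gave the same counts of 2 higher and 0 lower genes, and 625 genes at an unadjusted p under 0.05. Sources do not say whether pools came from separate animals at each time, so p-values measure only the spread between these pools.

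The promoters of both genes are shown because they head the list and because PPAR receptors bind repeats of the half-site AGGTCA. The sequences are RefSeq promoters on build GRCm38.p6, 300 bases around the gene start, with AGGTCA on either strand in capitals.
Pdk4 (chr6:5496229-5496528, minus strand): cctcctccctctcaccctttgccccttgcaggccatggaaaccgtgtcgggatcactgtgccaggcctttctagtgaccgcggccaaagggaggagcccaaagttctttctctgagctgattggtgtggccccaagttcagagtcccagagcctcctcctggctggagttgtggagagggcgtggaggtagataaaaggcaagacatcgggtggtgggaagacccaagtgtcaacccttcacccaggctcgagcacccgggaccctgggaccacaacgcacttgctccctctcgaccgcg
Ucp3 (chr7:100472741-100473040, plus strand): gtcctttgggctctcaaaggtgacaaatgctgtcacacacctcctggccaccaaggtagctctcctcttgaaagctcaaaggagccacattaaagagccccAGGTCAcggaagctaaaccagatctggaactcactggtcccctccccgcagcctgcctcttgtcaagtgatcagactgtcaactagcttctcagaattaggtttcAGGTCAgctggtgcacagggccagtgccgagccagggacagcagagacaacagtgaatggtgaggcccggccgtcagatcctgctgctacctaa
Ucp3 held 2 half-sites within these bases and Pdk4 held none. Among the 17 tested genes of fatty acid oxidation and ketogenesis with a promoter in the table, 4 held the half-site (Acadm, Acadvl, Cpt1a and Ucp3), against 18.1% of 27025 genes. A match describes the letters only.

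Pdk4 encodes pyruvate dehydrogenase kinase 4, which switches off pyruvate dehydrogenase and so spares glucose (uc009awk.1; chromosome 6, 5483351 to 5496278). It had 107.9 CPM in ED12, 766.4 CPM in MD16, 424.0 CPM in EN00 and 238.1 CPM in EN24, against 19.1 CPM in ED08, 48.3 CPM in MD12 and 53.7 CPM in EN20. Each early fast library was above every fed library, with MD16 at the top and ED08 at the bottom. The means were 384.1 ± 286.0 CPM in the early fast (SD, n = 4) and 40.4 ± 18.6 CPM in the fed state (SD, n = 3). Within groups the rise was 5.63-fold in ED, 15.8-fold in MD, 4.43-fold for EN24 and 7.89-fold for EN00. Over the groups the log2 fold change was 2.99 ± 0.36 (SE), or 7.95-fold, with an edgeR adjusted p of 3.36e-04. Without EN00 it was 2.87, with an edgeR adjusted p of 0.00175.

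Ucp3 encodes uncoupling protein 3 of the inner mitochondrial membrane (uc009ina.1; chromosome 7, 100472991 to 100486432). It had 12.9 CPM in ED12, 62.5 CPM in MD16, 36.3 CPM in EN00 and 23 CPM in EN24, against 6.81 CPM in ED08, 7.57 CPM in MD12 and 9.48 CPM in EN20. The groups did not overlap, and the fed libraries lay close together while the early fast libraries spread widely. The log2 fold change was 1.87 ± 0.29 (SE), or 3.66-fold, with an edgeR adjusted p of 0.00571. This call depended on the libraries kept: the edgeR adjusted p was 0.031 without EN00, 0.145 without MD16, 0.141 without MD12 and 0.0596 without EN20, with log2 fold changes of 1.77, 1.36, 1.36 and 2.05. Leaving out MD16 or MD12 removes the whole MD step, so these 2 are 1 check, and leaving out EN20 removes the whole EN step. With the 7 libraries alone it was 0.283, at a log2 fold change of 1.87.

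**Figure D1:**
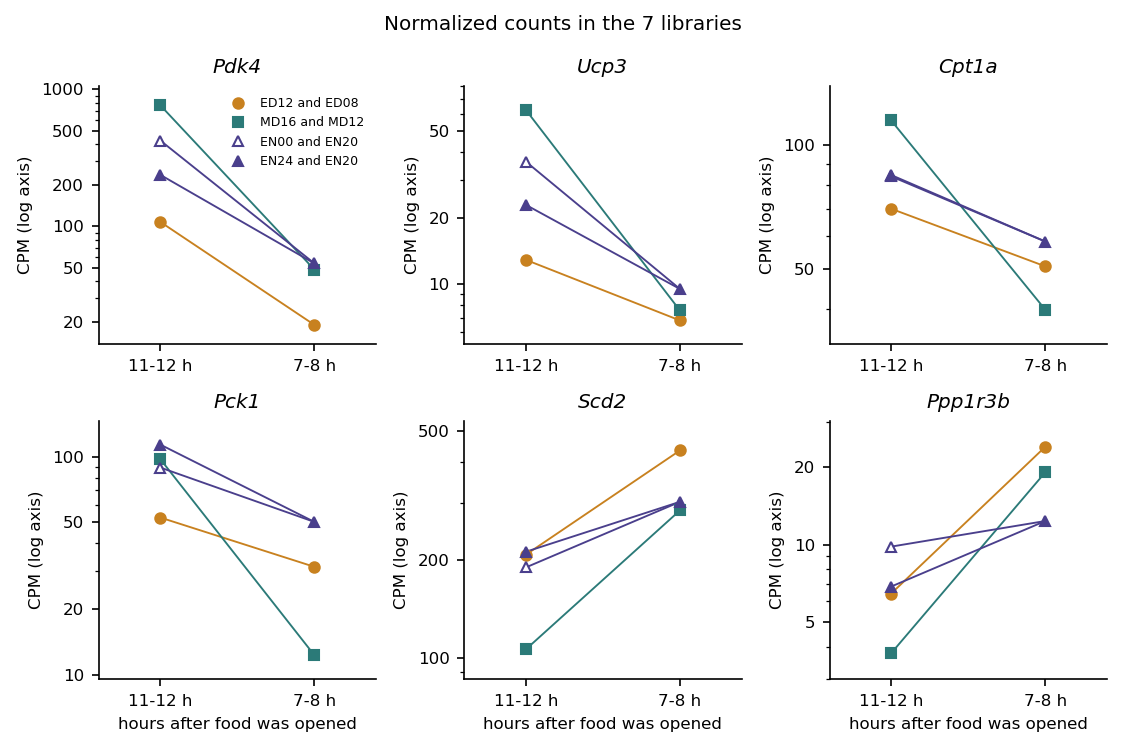
CPM (log axis) of 6 genes in the early fast libraries, 11-12 h after food was opened (left), and in the fed libraries, 7-8 h after it (right), 1 point per library; lines join libraries of the same feeding group and the open triangle is EN00. Pdk4 and Ucp3 lie higher in every early fast library, with 766.4 and 62.5 CPM in MD16, and Scd2 and Ppp1r3b lie lower.

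The other genes of fatty acid oxidation and ketogenesis were mostly higher. Of 22 tested members, 2 passed the adjusted threshold (Pdk4 and Ucp3). At an unadjusted p under 0.05, 10 were higher and 0 lower, against 2.83% and 2.7% over all genes. In 4 of 4 differences 14 were higher and 1 lower, against 9.19% and 8.59%. Their median log2 fold change was 0.22. Cpt1a, which admits long-chain fatty acids to mitochondria (uc008fwf.2; chromosome 19, 3322326 to 3385735), had 69.9, 114.5, 84.4 and 83.8 CPM in ED12, MD16, EN00 and EN24, against 50.7, 39.8 and 58.2 CPM in ED08, MD12 and EN20. The groups did not overlap, yet at 0.80 ± 0.18 (SE) on the log2 scale it did not pass, with an edgeR adjusted p of 0.196. Angptl4, a PPAR target that inhibits lipoprotein lipase, had 47.9, 143.6, 98.8 and 102.8 CPM in the same early fast libraries, against 29.1, 12.6 and 60.8 CPM in ED08, MD12 and EN20. Here ED12 lay below EN20, and the log2 fold change of 1.44 ± 0.42 (SE) did not pass (edgeR adjusted p = 0.507). Further members were Ucp2 at 0.52, the thioesterase Acot2 at 0.38 and the carnitine carrier Slc25a20 at 0.22 on the log2 scale. Ppara itself was at -0.01 and Cpt2, the inner membrane partner of Cpt1a, at -0.01.

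Markers of fast skeletal muscle moved with these genes. Their summed level over 16 genes was 21520 CPM in ED12, 33550 CPM in MD16, 29490 CPM in EN00 and 25070 CPM in EN24, against 16070 CPM in ED08, 27880 CPM in MD12 and 18600 CPM in EN20. It was higher in the early fast within each group, although the ranges of the groups overlapped. Of the 16 genes, 14 were higher in 4 of 4 differences, against 9.19% over all genes. At an unadjusted p under 0.05, 1 (Myl1) was higher, against 2.83%, and 0 passed after adjustment. The median log2 fold change was 0.41. The 11 slow muscle markers had a median of -0.03 and summed to 503.0 to 516.7 CPM in early fast libraries and 498.0 to 513.8 CPM in fed libraries. With the mean level of the fast muscle list as a covariate, a setting added after the data were seen, Pdk4 was at 2.79 and Ucp3 at 1.77 on the log2 scale, with edgeR adjusted p of 8.08e-04 and 0.0155. Under that covariate 3 genes were higher and 5 lower over all genes, Cpt1a being the third higher gene (edgeR adjusted p = 0.0491).

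Genes of insulin signalling and those that FOXO factors switch on when insulin is low leaned higher in ED and MD, but not in EN24. Their median was 0.27 in ED, 0.51 in MD, -0.07 for EN24 and 0.17 for EN00, and 15 of 23 were lower in EN24 than in EN20. At an unadjusted p under 0.05, 6 of the 23 tested members were higher and 0 lower, against 2.83% and 2.7% over all genes. In 4 of 4 differences 4 were higher and 0 lower, against 9.19% and 8.59%. The median over groups was 0.20, and 0 passed after adjustment. Trim63, a ubiquitin ligase of muscle protein breakdown, had 30.4, 235.6, 72.0 and 44.2 CPM in ED12, MD16, EN00 and EN24, against 16.7, 42.2 and 28.2 CPM in ED08, MD12 and EN20. Its partner ligase Fbxo32 had 84.1, 346.5, 164.7 and 86.8 CPM in those early fast libraries, against 70.0, 97.9 and 78.2 CPM in the fed ones. MD16 was far above every other library for both, and both ranges overlapped. The log2 fold changes were 1.43 ± 0.40 (SE) for Trim63 and 0.90 ± 0.31 (SE) for Fbxo32, with edgeR adjusted p of 0.464 and 0.764. Irs2, the insulin receptor substrate that FOXO factors induce, was higher in ED and MD but not in EN24 (17.7 CPM, against 22.4 CPM in EN20). The unadjusted count for the whole list was 1 higher and 1 lower without MD16 and MD12, against 1.52% higher and 1.13% lower over all genes in that fit. Without EN00 it was 4 higher and 0 lower, against 1.92% and 2.05% over all genes.

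Klf11, a zinc finger transcription factor, had 27.1, 57.2, 31.6 and 25.0 CPM in ED12, MD16, EN00 and EN24, against 19.1, 16.7 and 16.7 CPM in ED08, MD12 and EN20. The groups did not overlap, and its log2 fold change of 0.99 ± 0.23 (SE) had an edgeR adjusted p of 0.196. Fam13a was at 0.95 ± 0.23 (SE) on the log2 scale with 1 overlap, since EN24 at 24.4 CPM lay below MD12 at 29.2 CPM. Rspo1, a secreted agonist of Wnt signalling, was lower, with 10.2, 8.75, 12.1 and 10.8 CPM in the early fast libraries, against 15.9, 13.5 and 15.7 CPM in the fed ones. Oxtr, the oxytocin receptor, was lower as well, at 12.5, 9.15, 13.03 and 15 CPM, against 23.4, 15.9 and 19.3 CPM. Neither overlapped, and neither passed (edgeR adjusted p of 0.196 for Rspo1 at -0.56 and 0.235 for Oxtr at -0.69 on the log2 scale).

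Fatty acid and triglyceride synthesis genes were mostly lower in the early fast, least so in ED. At an unadjusted p under 0.05, 11 of 26 tested members were lower and 0 higher, against 2.7% and 2.83% over all genes. In 4 of 4 differences 13 were lower and 1 higher, against 8.59% and 9.19%. The median was -0.27 over groups (-0.08 in ED, -0.55 in MD, -0.19 for EN24 and -0.38 for EN00), and 0 passed after adjustment. The summed level was 19210, 12050, 12890 and 15500 CPM in ED12, MD16, EN00 and EN24, against 19370, 18020 and 17120 CPM in ED08, MD12 and EN20. In MD, 7 of 10 fat cell markers (median -0.38) and 16 of 16 sebaceous gland markers (median -0.28) were lower as well, and in ED 2 of 10 and 4 of 16 were. Scd3 and Elovl3 belong both to the synthesis list and to the sebaceous gland markers. With the mean level of the fat cell markers as a covariate, Scd2 was at -1.02 on the log2 scale (edgeR adjusted p = 0.00543). That setting was added after the data were seen. The part of fat cells in the list counts, and that of sebaceous glands, was not tested.

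Scd2, a stearoyl-CoA desaturase that makes monounsaturated fatty acids (uc008hpp.2; chromosome 19, 44293676 to 44306864), had 207.4, 105.9, 189.5 and 211.8 CPM in ED12, MD16, EN00 and EN24, against 434.8, 284.1 and 302.0 CPM in ED08, MD12 and EN20. Every early fast library was below every fed one. Its log2 fold change was -0.99 ± 0.19 (SE), with an edgeR adjusted p of 0.0637 that missed the threshold. The Scd genes are close copies of each other, so reads may be split among them, and Scd1 was at -0.21. Under other settings Scd2 passed: the edgeR adjusted p was 0.028 with a time of day term and 0.00835 with the fast muscle covariate. Over all settings its adjusted p ran from 2.41e-05 by DESeq2 to 0.999 by edgeR without MD12 or MD16, where the log2 fold change was -0.80.

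Thrsp, a regulator of lipogenesis that responds to carbohydrate, had 223.8, 49.2, 92.5 and 110.2 CPM in the same early fast libraries, against 270.6, 166.8 and 166.4 CPM in the fed ones. Agpat2, an acyltransferase of triglyceride synthesis, had 65.9, 12.7, 28.7 and 40.4 CPM, against 82.3, 46.2 and 57.1 CPM. Acly, which makes cytosolic acetyl-CoA, had 1031, 508.6, 630.7 and 755.1 CPM, against 1203, 1076 and 918.7 CPM. All 3 were lower in 4 of 4 differences, most in MD, with ED12 inside the fed range. Srebf1, the transcription factor of this pathway, was at -0.35, Mlxipl (ChREBP, its glucose-sensing counterpart) at -0.30, Acaca at -0.39 and Fasn at -0.39. Lpin1, a phosphatidate phosphatase that also acts as a coactivator of PPAR factors, was the 1 member higher in 4 of 4 differences, at 0.23. Without MD16 and MD12, 5 members were lower at an unadjusted p under 0.05, against 1.13% of all genes in that fit, and without EN00 8 were, against 2.05%.

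Sterol synthesis genes were mostly lower too. The list of cholesterol synthesis and uptake had 25 tested members, with a median of -0.30. At an unadjusted p under 0.05, 17 were lower and 0 higher, against 2.7% and 2.83% over all genes. In 4 of 4 differences 15 were lower and 0 higher, against 8.59% and 9.19%. None passed after adjustment. Sqle, the squalene epoxidase, had 89.8, 50.0, 59.3 and 65.1 CPM in ED12, MD16, EN00 and EN24, against 103.4, 90.0 and 82.0 CPM in ED08, MD12 and EN20. Lss, the next enzyme, had 83.8, 42.3, 59.8 and 61.6 CPM, against 94.2, 98.5 and 84.5 CPM, and Idi1, which isomerises the isoprenoid unit, had 106.1, 64.4, 78.1 and 87.0 CPM, against 128.1, 120.7 and 103.9 CPM. MD16 was lowest for each, and of these 3 only Lss did not overlap between the groups. The log2 fold changes were -0.47 ± 0.11, -0.60 ± 0.17 and -0.49 ± 0.13 (SE) for Sqle, Lss and Idi1, with edgeR adjusted p of 0.302, 0.476 and 0.447.

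Insig1, which holds SREBP back in the endoplasmic reticulum and is itself an SREBP target, was lower in 4 of 4 differences, with 179.0, 68.1, 128.3 and 139.0 CPM in the early fast libraries, against 260.4, 112.4 and 185.5 CPM in the fed ones. The lanosterol demethylase Cyp51 was at -0.31 and the synthase Hmgcs1 at -0.29. Srebf2, the SREBP gene of sterol synthesis, was at -0.15. Sebaceous gland markers, another seat of lipid synthesis, moved with this list in MD: all 16 were lower in MD16 than in MD12, and 4 of 16 were lower in ED12 than in ED08. Their summed level was 1968 to 2537 CPM in early fast libraries and 2112 to 2430 CPM in fed ones, and their part in the result was not tested. Without MD16 and MD12, 7 sterol genes were lower at an unadjusted p under 0.05 (median -0.19), against 1.13% of all genes in that fit. Without EN00 16 were (median -0.29), against 2.05% of all genes. With the fast muscle covariate 3 of the list passed, Sqle, Lss and Insig1 (edgeR adjusted p of 0.0363, 0.046 and 0.0449).

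**Figure D2:**
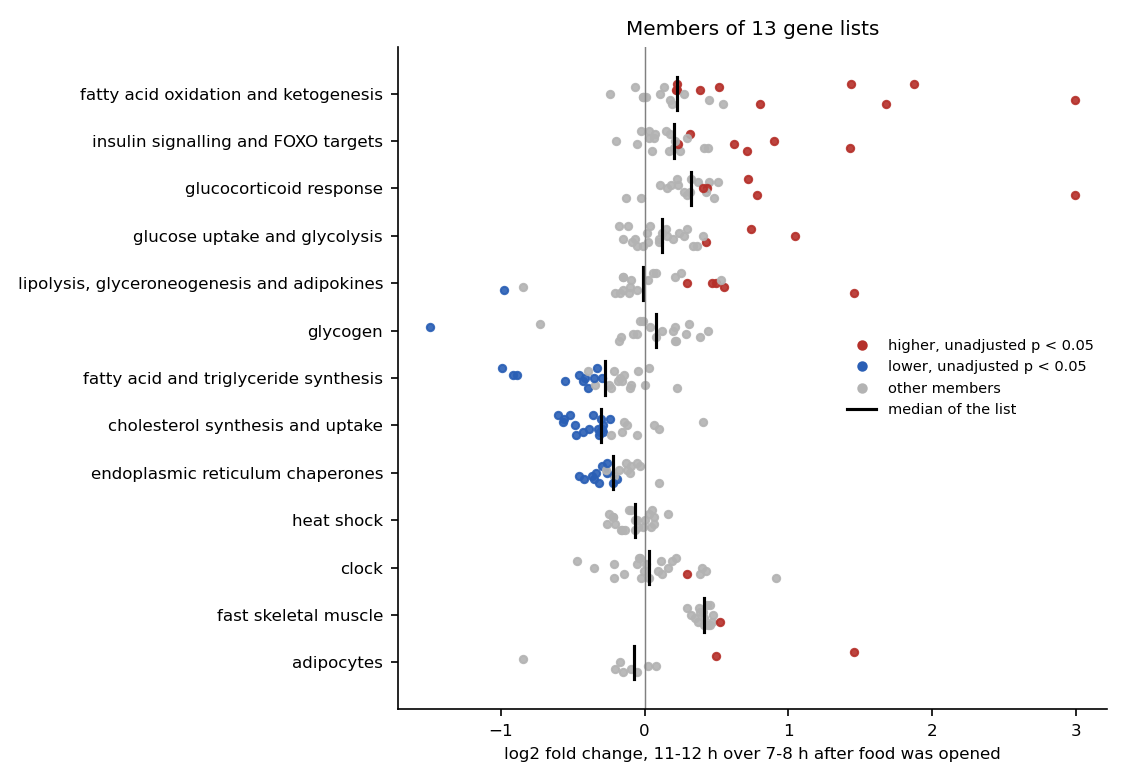
Log2 fold change of early fast over fed libraries for each tested member of 13 gene lists, 1 point per gene, with the list median as a black bar; coloured points have an unadjusted p under 0.05. Most coloured points of sterol synthesis (17), chaperones (11) and fatty acid synthesis (11) lie left of 0, and those of fatty acid oxidation (10) lie right of 0.

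Chaperones of the endoplasmic reticulum, which fold secreted and membrane proteins, were also mostly lower, by small amounts. The 21 tested members had a median of -0.22. At an unadjusted p under 0.05, 11 were lower and 0 higher, against 2.7% and 2.83% over all genes. In 4 of 4 differences 14 were lower and 0 higher, against 8.59% and 9.19%. None passed after adjustment. Hsp90b1 (GRP94) had 266.4, 361.9, 331.0 and 328.1 CPM in ED12, MD16, EN00 and EN24, against 394.9, 385.5 and 429.2 CPM in ED08, MD12 and EN20. Pdia3, a disulfide isomerase, had 220.5, 204.8, 212.3 and 238.3 CPM, against 259.5, 251.5 and 269.1 CPM, and Dnajc3, a cochaperone, had 108.6, 112.9, 120.4 and 125.6 CPM, against 150.1, 130.2 and 144.9 CPM. For these 3 the groups did not overlap. Their log2 fold changes were -0.35 ± 0.11, -0.26 ± 0.08 and -0.30 ± 0.07 (SE), with edgeR adjusted p of 0.826, 0.853 and 0.531. Pdia6 did overlap, with EN24 at 124.5 CPM above MD12 at 110.9 CPM. It was lower in 4 of 4 differences, at -0.42 ± 0.14 (SE) on the log2 scale (edgeR adjusted p = 0.748).

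The list median was negative in each feeding group, at -0.18 in ED, -0.21 in MD, -0.21 for EN24 and -0.34 for EN00. Without MD16 and MD12, 8 members were lower at an unadjusted p under 0.05 (median -0.26), and without EN00 8 were (median -0.19). Over all genes those fits gave 1.13% and 2.05% lower. Hspa5 (BiP), the main chaperone of this compartment, was at -0.36, Calr at -0.32, Sdf2l1 at -0.45 and Pdia4 at -0.22, while Herpud1 was at 0.10. Cytosolic and mitochondrial heat shock genes had 0 of 22 members past an unadjusted p of 0.05 and a median of -0.07. In 4 of 4 differences 7 of them were lower, against 8.59% over all genes.

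Many promoters of this list carry the endoplasmic reticulum stress element, which the factors ATF6 and XBP1 bind together with NF-Y. It was searched on both strands as CCAAT, a gap of 9 bases, then CCACG. It was present in 8 of the 19 tested chaperone genes with a RefSeq promoter in the table, against 0.137% of 27025 genes. The windows of 4 members lower in 4 of 4 differences are shown, on build GRCm38.p6, with the element in capitals.
Hspa5 (chr2:34772005-34772063, plus strand): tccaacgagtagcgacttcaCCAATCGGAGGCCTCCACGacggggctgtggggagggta
Hsp90b1 (chr10:86705618-86705676, minus strand): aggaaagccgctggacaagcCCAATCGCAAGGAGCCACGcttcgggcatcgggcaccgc
Dnajc3 (chr14:118937807-118937865, plus strand): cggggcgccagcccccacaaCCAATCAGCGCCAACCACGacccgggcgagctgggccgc
Pdia6 (chr12:17266471-17266529, plus strand): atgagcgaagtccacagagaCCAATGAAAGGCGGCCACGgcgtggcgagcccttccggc
Several of these genes are textbook targets of that element, so the share describes the list and says nothing of the step.

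Ppp1r3b, which targets a phosphatase to glycogen and favours its synthesis (uc009lkw.1; chromosome 8, 35375694 to 35388139), had 6.44, 3.77, 9.82 and 6.86 CPM in ED12, MD16, EN00 and EN24, against 24.1, 19.2 and 12.4 CPM in ED08, MD12 and EN20. The groups did not overlap, and the log2 fold change of -1.49 ± 0.37 (SE) had an edgeR adjusted p of 0.26. The other 18 tested glycogen genes had 0 with an unadjusted p under 0.05. Of all 19, 8 were higher and 3 lower in 4 of 4 differences, with a median of 0.08. Among 25 tested genes of glucose uptake and glycolysis, 3 were higher and 0 lower at an unadjusted p under 0.05, with a median of 0.12. The 3 were Txnip at 1.04, Arrdc4 at 0.42 and Pfkfb3 at 0.74, against 2.83% higher over all genes. In 4 of 4 differences 10 of the 25 were higher and 1 lower, against 9.19% higher and 8.59% lower over all genes. Members higher in 4 of 4 in both lists include genes used in muscle, beside the fast muscle median of 0.41. These were Pygm at 0.44, Eno3 at 0.40, Pfkm at 0.36 and Aldoa at 0.34. Eno3 also belongs to the fast muscle markers. With the fast muscle covariate the median was -0.10 for glycogen and -0.02 for glycolysis. At an unadjusted p under 0.05, that fit gave 0 higher and 2 lower glycogen genes, and 3 higher and 2 lower glycolysis genes. Over all genes it gave 3.69% higher and 3.45% lower. The part of muscle in the 4 of 4 counts was not tested. Txnip and Arrdc4 are arrestin-like proteins that limit glucose uptake, and Pfkfb3 makes an activator of glycolysis.

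Txnip had 898.6, 2216, 702.0 and 557.2 CPM in the early fast libraries, against 412.4, 722.0 and 421.4 CPM in the fed ones. Pfkfb3 had 60.2, 62.9, 52.4 and 55.4 CPM, against 38.4, 42.8 and 27.98 CPM. Txnip overlapped between the groups, with MD12 above EN00 and EN24, and Pfkfb3 did not. The edgeR adjusted p was 0.447 for Txnip and 0.742 for Pfkfb3.

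Fat cell genes went both ways. Pck1, which supplies glycerol for fat re-esterification (uc008odn.1; chromosome 2, 173153073 to 173159274), had 52.6, 97.4, 89.1 and 113.6 CPM in ED12, MD16, EN00 and EN24, against 31.2, 12.3 and 50.2 CPM in ED08, MD12 and EN20. The groups did not overlap, and its log2 fold change was 1.46 ± 0.36 (SE), with an edgeR adjusted p of 0.235. The lipase Lipe was at 0.50 and higher in 4 of 4 differences, while G0s2, an inhibitor of the lipase Pnpla2, was at -0.97 and lower in 4 of 4. Pnpla2 itself was at 0.21, its activator Abhd5 at -0.11 and the monoglyceride lipase Mgll at -0.15. Leptin (Lep) was at -0.85 and lower in 3 of 4. Of 22 tested members of lipolysis, glyceroneogenesis and adipokines, 5 were higher and 1 lower at an unadjusted p under 0.05, with a median of -0.01. Over all genes 2.83% were higher and 2.7% lower. Beside these values, the summed level of 10 fat cell markers was 2766, 1254, 2130 and 2313 CPM in ED12, MD16, EN00 and EN24, against 2519, 1439 and 2247 CPM in ED08, MD12 and EN20, with a median log2 fold change of -0.07. Pck1, Lipe and Lep are themselves among these 10 markers.

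Among glucocorticoid target genes the call on Pdk4, which belongs to this list too, was the only one. At an unadjusted p under 0.05, 5 of 21 tested members were higher and 0 lower, against 2.83% and 2.7% over all genes. The median of the list was 0.33. The median differed by group, at 1.03 in ED, 0.24 in MD, 0.003 for EN24 and 0.13 for EN00. The transcription factor Zbtb16 had 148.3 CPM in ED12, 499.2 CPM in MD16, 69.9 CPM in EN00 and 54.5 CPM in EN24. Its fed levels were 48.0 CPM in ED08, 356.9 CPM in MD12 and 52.2 CPM in EN20. Cebpd, another transcription factor, had 51.0, 85.4, 24.7 and 24.1 CPM in those early fast libraries. Its fed levels were 18.4, 51.7 and 19.4 CPM in ED08, MD12 and EN20. For both genes the groups overlapped, and fed MD12 lay above each early fast library but MD16. The ED step runs from ZT8 to ZT12, the MD step from ZT12 to ZT16 and the EN step from ZT20 to ZT24, so hours after food and clock time cannot be told apart within a group. Clock genes had 1 higher (Usp2 at 0.29) and 0 lower of 23 at an unadjusted p under 0.05, against 2.83% and 2.7% over all genes. Their median was 0.03 over groups, 0.34 in ED, 0.19 in MD, -0.08 for EN24 and -0.02 for EN00. In ED12 17 of 23 were higher than in ED08, and in EN24 15 of 23 were lower than in EN20. The shares over all genes within a single group were not counted.

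No gene passed a test of whether the step was of unequal size between feeding groups. In the test of unequal steps in ED, MD and EN, 0 of 15719 genes passed (0%) and 775 (4.93%) had an unadjusted p under 0.05. Of sterol genes, 7 of 25 were among these, and of chaperones 0 of 21. Neither was alone in this. Sebaceous gland markers had 5 of 16 and the insulin and FOXO list 5 of 23, while mitosis had 0 of 25 and fast muscle 0 of 16. The lowest p belonged to Aox4, an aldehyde oxidase, with 132.0, 33.9, 87.4 and 74.9 CPM in ED12, MD16, EN00 and EN24, against 93.5, 97.7 and 83.9 CPM in ED08, MD12 and EN20. The MD difference was -2.03 relative to that of ED on the log2 scale, with an edgeR adjusted p of 0.137. Mrap, an accessory protein of the ACTH receptor, followed at -2.58, with 6.08 CPM in MD16 against 37.8 CPM in MD12 and 39.9 CPM in ED12 against 41.3 CPM in ED08 (edgeR adjusted p = 0.583).

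Of the 12 genes with the lowest p in this test, Angptl4 alone lies in the oxidation list. Its MD difference exceeded that of ED by 2.79 on the log2 scale (11.3-fold in MD, 1.65-fold in ED, 1.69-fold for EN24 and 1.63-fold for EN00; edgeR adjusted p = 0.65). In this test Pdk4 and Ucp3 had an edgeR adjusted p of 0.987 each, with MD differences 1.49 and 2.13 above those of ED. Rbm3, an RNA-binding protein induced by cold, was lower in MD16 (49.0 CPM, against 74.4 CPM in MD12) and higher in ED12 (133.6 CPM, against 91.2 CPM in ED08). The summed ribosomal protein level was 11010 CPM in MD16 against 11910 CPM in MD12, and 16620 CPM in ED12 against 14340 CPM in ED08.

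**Figure D3:**
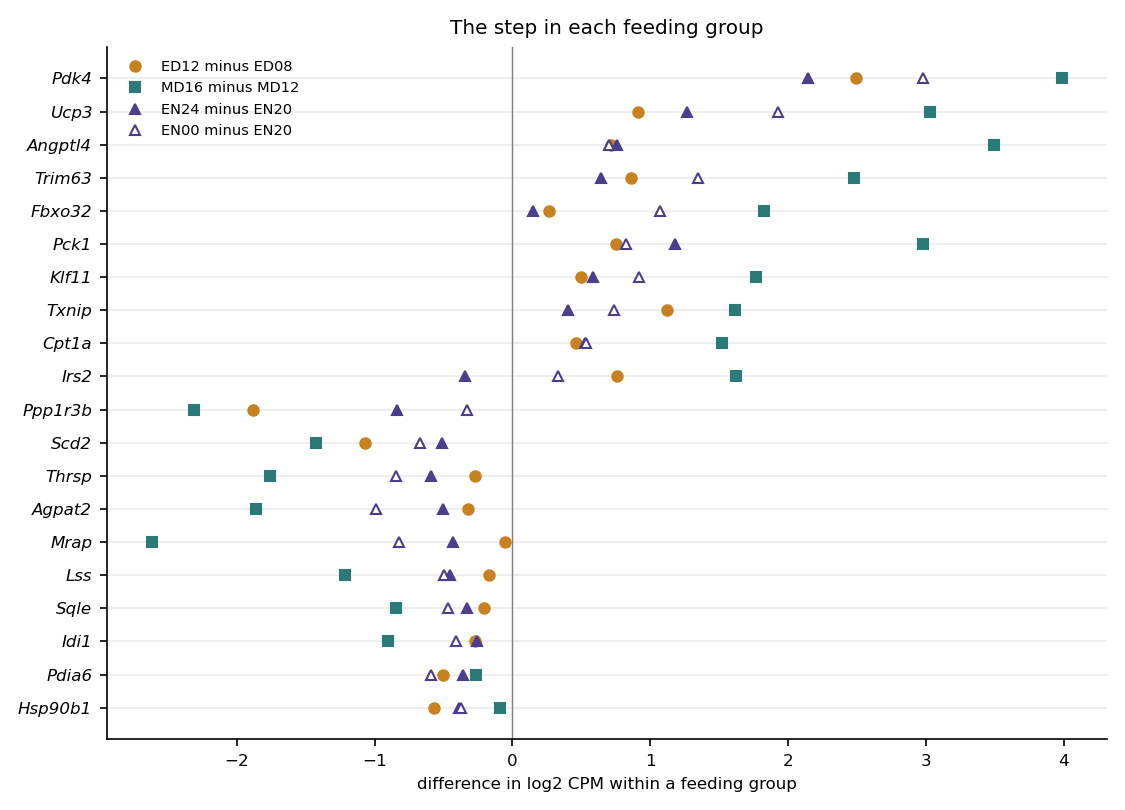
Difference in log2 CPM between the early fast and the fed library of each feeding group for 20 named genes, 1 point per difference; both EN differences share EN20, and the open triangle is EN00. The MD square lies farthest from 0 for most genes, at 3.98 for Pdk4 and -2.61 for Mrap, while for Hsp90b1 it is the nearest to 0 (-0.09).

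Whether the change belonged to this step was examined against the later step between 15-16 h and 19-20 h after food, which shares no library with it. The difference of the 2 steps passed for 2 genes higher (0.0127%), Pdk4 and Ucp3, and for 0 lower (0%), with 1066 genes (6.78%) at an unadjusted p under 0.05. It was 3.64 ± 0.63 (SE) for Pdk4 and 2.35 ± 0.41 (SE) for Ucp3 on the log2 scale, each with an edgeR adjusted p of 0.0199. Without EN00 both had an edgeR adjusted p of 0.0509, with differences of 3.54 and 2.31, and both also missed the threshold without MD00, MD12, MD16, ED08, ED16, EN04 or EN08 (edgeR adjusted p of 0.0543 to 0.183). Ucp3 missed it without EN20 as well (edgeR adjusted p = 0.0807). Rspo1 came next at -0.84 ± 0.14 (SE), with an edgeR adjusted p of 0.157.

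Over the 6 classes of hours after food, Pdk4 averaged 136.6 CPM at 3-4 h, 40.4 CPM at 7-8 h, 384.1 CPM at 11-12 h, 254.6 CPM at 15-16 h, 204.0 CPM at 19-20 h and 235.0 CPM at 23-24 h. Ucp3 ran alike, at 18.4, 7.95, 33.7, 26.6, 21.4 and 26.6 CPM. Both class means were lowest at 7-8 h and highest at 11-12 h, where MD16 had 766.4 and 62.5 CPM. ED12, at 107.9 and 12.9 CPM, lay below the mean at 3-4 h and the mean of each later class. Ppp1r3b declined over more classes, at 37.5, 18.5, 6.72, 5.85, 3.97 and 7.40 CPM, and Scd2 was highest at 7-8 h, at 222.1, 340.3, 178.6, 133.2, 98.8 and 87.0 CPM. Cpt1a stayed near its early fast level afterwards, at 58.6, 49.6, 88.2, 99.7, 99.5 and 96.8 CPM, and Pck1 went on to 137.5 CPM at 23-24 h.

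**Figure D4:**
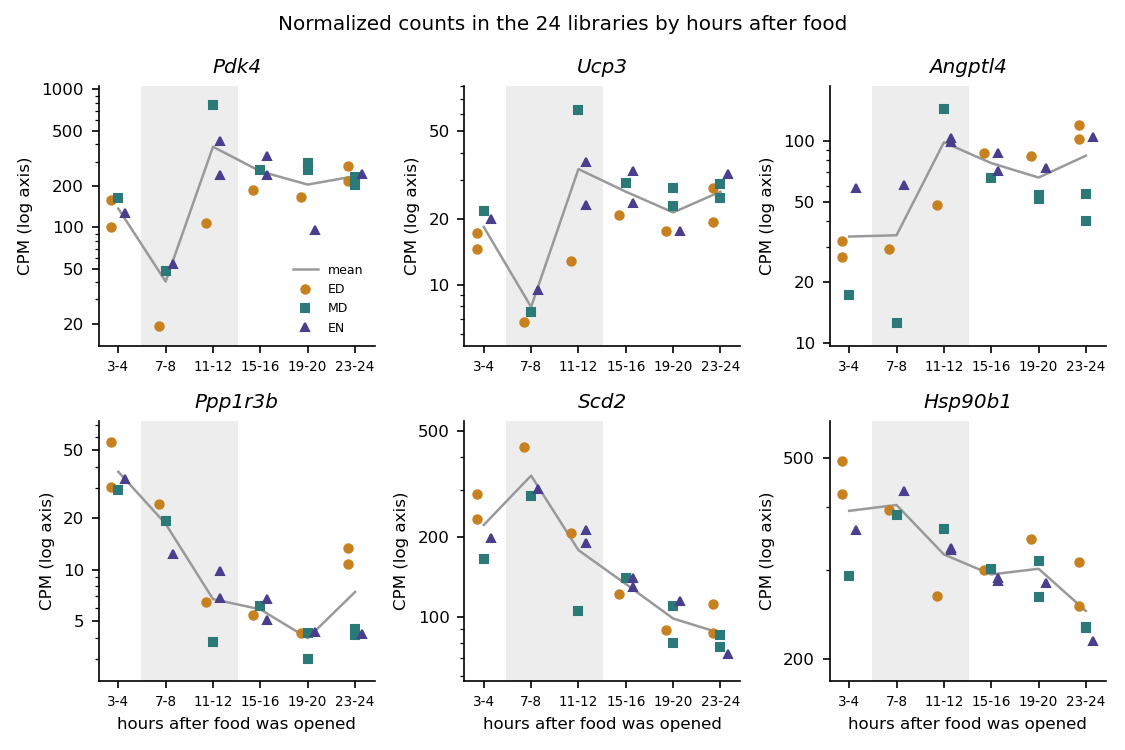
CPM (log axis) of 6 genes in the 24 libraries by hours after food was opened, 1 point per library, coloured by feeding group, with the class mean as a grey line; the shaded band holds the fed and early fast classes. The means of Pdk4 and Ucp3 are lowest at 7-8 h (40.4 and 7.95 CPM) and highest at 11-12 h (384.1 and 33.7 CPM, with MD16 at the top). The mean of Ppp1r3b declines between 3-4 h and 11-12 h.

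Intron rows, which count reads of unspliced RNA, gave the same direction for the leading genes. Pdk4 had 38.8, 135.0, 59.5 and 65.4 intron CPM in ED12, MD16, EN00 and EN24, against 4.76, 13.8 and 20.8 intron CPM in ED08, MD12 and EN20. Scd2 had 13.5, 6.83, 15.3 and 15.4 intron CPM, against 34.3, 26.5 and 28.9 intron CPM. Neither overlapped between the groups. Over 14585 genes with enough intron reads, 0 passed in either direction (0%) and 842 (5.77%) had an unadjusted p under 0.05, with log2 fold changes of 2.44 for Pdk4, 1.53 for Ucp3 and -1.34 for Scd2 (edgeR adjusted p of 0.306, 0.591 and 0.306).

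Most lists of growth, repair and barrier genes held few members at an unadjusted p under 0.05, beside 2.83% higher and 2.7% lower over all genes. There were 0 of 25 mitosis genes, 0 of 23 nucleotide excision repair genes, 0 of 22 p53 targets, 0 of 24 ribosome biogenesis genes and 0 of 26 collagen and matrix genes. DNA replication had 1 of 26 (Rfc4 at -0.47) and epidermal differentiation 1 higher and 1 lower of 25 (Tgm3 at 0.78 and Krt1 at -0.43). The interferon response held more, with 3 higher of 23 (Oas2 at 0.51, Gbp3 at 0.33 and Gbp2 at 0.30), at a list median of 0.06. Without EN00 1 of the 23 was higher, against 1.92% of all genes in that fit. Without MD16 and MD12 0 were, against 1.52%. At the same unadjusted threshold, metabolic and stress lists held few as well: 1 higher and 2 lower of 26 ATF4 targets and tRNA synthetases, 1 higher of 25 oxidative phosphorylation genes, 1 lower of 24 antioxidant genes, 1 higher of 20 immediate early genes and 0 of 24 ribosomal protein genes. Some of these lists had medians of opposite sign by group. In ED, MD, EN24 and EN00 the DNA replication medians were 0.36, -0.85, -0.25 and -0.21. In the same order they were 0.12, -0.40, -0.01 and -0.21 for ribosome biogenesis. Oxidative phosphorylation had 0.22, -0.21, 0.14 and 0.20, and immediate early genes had 0.29, 0.44, -0.16 and -0.24. Markers of other cells had 0 of 12 for macrophages, 0 of 9 for fibroblasts, 0 of 8 for endothelium, 0 of 8 for melanocytes, 0 of 6 for mast cells and 0 of 6 for blood, with 1 lower of 7 for T cells (Thy1).

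Krt1, the suprabasal keratin, had 596.4, 484.7, 454.3 and 499.7 CPM in ED12, MD16, EN00 and EN24, against 704.0, 761.4 and 634.4 CPM in ED08, MD12 and EN20, with no overlap. Tgm3, a transglutaminase also of the hair follicle, had 14.5 CPM in EN00 and 3.83 to 8.24 CPM in the other early fast libraries, against 3.24 to 6.77 CPM in the fed ones, and was at 0.32 without EN00. Chac1, a target of the amino acid response factor ATF4, likewise had 29.4 CPM in EN00 and 3.83 to 9.25 CPM elsewhere in the early fast, against 2.71 to 4.76 CPM in the fed state, and was at 0.56 without EN00 and at 1.37 with it.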

How the data were processed

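RNA was measured by stranded total RNA sequencing of whole back skin, 1 pool per library, per the labels' protocols. The deposited table holds read counts per gene model made by the authors, not normalized, with separate exon, intron and antisense rows; a second deposited table holds RPKM values made by the authors with cqn, per its name, and served as an alternative only. The submitters' processing notes name TopHat2, SAMtools, HOMER and build mm10 and give no version. How reads were counted, and what was done with reads matching more than 1 place, is not stated there, so genes with close copies are uncertain. Each symbol was represented by its most abundant exon row (29758 symbols, with 2114 rows dropped).

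filterByExpr of edgeR 4.0.16 (R 4.3.3; minimum count 10, minimum total 15, by feeding group) kept 15719 genes. TMM gave the scaling factors, and a prior count of 2 was used for log2 CPM. The model covered all 24 libraries, with a level for each feeding group in the 7 libraries, another in the other 17, and the class of hours after food, leaving 14 residual degrees of freedom. Tests were edgeR's quasi-likelihood F test with Benjamini-Hochberg adjustment over all genes tested (threshold 0.05) and were checked on simulated data. Unequal steps between feeding groups were tested with 2 degrees of freedom (12 residual), and the later step in an additive model (16 residual). Fold changes are fitted by edgeR, and their standard errors come from a least squares fit of log2 CPM with that design. limma 3.58.1 was used on log2 RPKM and DESeq2 1.42.0 on counts as alternatives.

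Members and the 40 gene lists were chosen with earlier results of these data known. Named genes were those past the threshold, the 10 with the lowest p where fewer passed, the 4 members of each list with the lowest p, and the 12 with the lowest p between feeding groups; those past the threshold in the 4 differences needed 1 sign and a mean of at least 1 CPM. Some genes that this rule names are not reported here. Other list members named with a fold change only were chosen after their values were seen. Promoters were read from a RefSeq table of GRCm38.p6 matched by symbol. Values rest on 1 library per group and time, apart from EN, and total counts limit the precision of low genes.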

Additional observations from a re-analysis of the deposited data

Results flagged for a closer look

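Dixon's criterion was applied on the log2 scale to the 4 early fast libraries for 69 values (named genes and summed marker lists), and 5 had 1 library set apart from the other 3; chance alone sets apart about 1 in 20. Scd2 was lowest in MD16, at 106 CPM, below the other early fast libraries at 189.5 to 211.8 CPM. Dst, a linker protein of hemidesmosomes, was highest in MD16, at 2220 CPM. Gbp3, an interferon-induced GTPase, was highest in EN00, at 14.7 CPM. The summed sebaceous gland markers were highest in ED12, at 2540 CPM, and the summed hair shaft markers were highest in EN00, at 2580 CPM.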

How the results depend on the processing

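The count of higher genes (2) was 1 with the 7 libraries alone, where Ucp3 missed the threshold, 1 without MD16 and MD12, 5 with no filter, 4 by DESeq2 and 0 on intron rows. The count of lower genes (0) was 1 with a time of day term, 2 with no filter, 3 by DESeq2, 1 and 2 by limma with RPKM pseudocounts of 0.1 and 1, and 5 with either the fast muscle or the adipocyte covariate. DESeq2 gave Ucp3 no adjusted p. Leaving out 1 library at a time gave 1 to 2 higher and 0 to 1 lower genes. Counts without MD16, MD12 or EN20 were 1 higher, and without ED08 or ED12 1 lower. Leaving out any of these libraries removed the whole step of its feeding group. For unequal steps between feeding groups (0), there were 3 with no filter, 7 by DESeq2 and 0 to 1 when 1 library was left out. For the later step (2 higher, 0 lower), DESeq2 gave 1 lower, and leaving out 1 library gave 0 to 4 higher and 0 to 1 lower. On intron rows Gsta3 was at 0.22 and Rfc4 at 0.04996, against the opposite sign on exon rows. The causes were not tested. RLE size factors, a minimum mean of 1 CPM, the additive model and leaving out EN00 with ED24 gave 2 higher and 0 lower genes. The intron rows, both covariates and the fit without MD16 and MD12 were added after seeing the data. No paired analysis was possible because replicate numbers only name the libraries, and the feeding group is already a term of the model. The ED and MD steps have 1 library at each time and so no replicate, and EN has 2 early fast libraries against 1 fed library.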
